A study of Arabidopsis thaliana with 6 samples.

Results

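The magnesium branch of chlorophyll synthesis was followed through 10 nuclear genes of Arabidopsis thaliana, chosen by their place in the pathway: GUN4, CHLH, CHLI1, CHLI2, CHLD, CHLM, CRD1, DVR, CHLG and CAO. All 10 are among the 33557 genes of the deposited comparison, and all 10 are among the 22892 genes that the authors tested. The seedlings were phyA-1 mutants, which lack normal function of the far-red photoreceptor phytochrome A, and wild type, both of the accession Landsberg erecta (Ler). Both genotypes grew in darkness for 4 days and then received far-red light for 3 hours, and 3 libraries of polyadenylated RNA from seedlings were made per genotype. The labels describe the replicates as independent biological ones. Dark-grown seedlings without far-red light were not analysed here, so a difference present before the light cannot be told apart from a response to it. In bulk RNA of seedlings, fewer expressing cells and less RNA per cell cannot be told apart either.

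Chlorophyll and heme share a pathway in the plastid up to protoporphyrin IX. Magnesium chelatase then inserts magnesium and commits the molecule to chlorophyll, while ferrochelatase inserts iron and commits it to heme. A methyltransferase, a cyclase and a vinyl reductase build protochlorophyllide, which flowering plants reduce only in light, through the protochlorophyllide oxidoreductases. Chlorophyllide a is then esterified to chlorophyll a, and part of it is oxidised on the way to chlorophyll b. Free intermediates of the pathway are phototoxic, so seedlings leaving darkness are known to control its genes closely, and GUN4 and CHLH (also named GUN5) are known from mutants in which signals from the plastid to the nucleus are disturbed. Far-red light acts through phytochrome A in etiolated seedlings but drives protochlorophyllide reduction poorly.

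Levels are given as the authors' FPKM, fragments scaled by transcript length and by library size, with 1 pooled value per genotype. Values per library were not analysed here, so no SD can be given, the depth is unknown, and neighbouring levels in an order cannot be set against a spread between replicates. Ratios are log2((phyA-1 FPKM + 1)/(wild type FPKM + 1)), so a negative ratio means lower in phyA-1. A gene was called when its q-value in the authors' deposited table was 0.05 or below. PHYA itself (AT1G09570) had 16.0 FPKM in phyA-1 and 167 FPKM in wild type, or 9.63% of the wild-type level.

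Each of the 10 listed genes was lower in phyA-1 and each was called, 10 of 10. Among all tested genes, 17.2% were called in either direction, 8.54% lower and 8.61% higher. Among the 6886 tested genes with a mean of at least 20 FPKM, a level that all members reached, 11.1% were called lower. The members' median log2 ratio was -0.97, against 0.05 over all tested genes. Summed over the 10 genes, the level was 535 FPKM in phyA-1 and 1531 FPKM in wild type, so the mutant held 34.9% of the wild-type sum. Rescaling both genotypes to equal summed FPKM lowered the median of expressed genes by 0.65 on the log2 scale and gave the members a median of -1.65. Leaving AT2G01021, the gene with the highest FPKM, out of the sums gave the members a median of -1.01. The falls were unequal, from a log2 ratio of -0.56 for CHLG to -2.52 for GUN4, and 5 of the 10 reached -1 or less, a size that 2.49% of all tested genes reached while called.

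**Figure D1:**
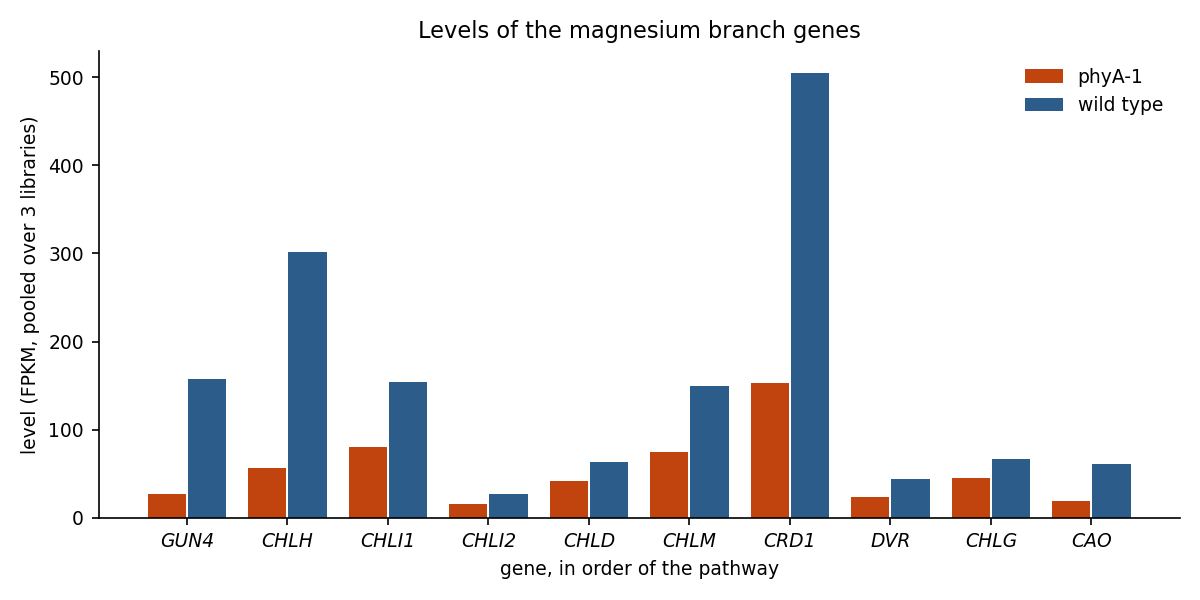
Pooled level of each gene in FPKM (vertical axis, from 0), with phyA-1 as the left bar and wild type as the right bar of each pair, and genes in the order of the pathway. No error bars are drawn because 1 value per genotype was used; the phyA-1 bar is the shorter one for all 10 genes, from 17.0% of the wild-type bar for GUN4 to 67.4% for CHLG.

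GUN4 (AT3G59400, TAIR10 chromosome 3, 21948717 to 21949710) encodes a porphyrin-binding protein that activates magnesium chelatase. It had 26.8 FPKM in phyA-1 and 158 FPKM in wild type. That is the lowest log2 ratio of the branch, -2.52, and 0.38% of all tested genes had a lower one. CHLH (AT5G13630, chromosome 5, 4387334 to 4392227) encodes the large chelatase subunit that binds the porphyrin. It had 56.2 FPKM in phyA-1 and 302 FPKM in wild type, a ratio of -2.40. GUN4 and CHLH, whose products bind the porphyrin substrate of the chelatase, thus fell by similar factors. The level of GUN4 was 0.476 times that of CHLH in phyA-1 and 0.523 times in wild type.

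The genes of the I and D subunits of the chelatase fell less. CHLI1 (AT4G18480, chromosome 4, 10201672 to 10203469), the main copy of the I subunit, had 80.6 FPKM in phyA-1 and 154 FPKM in wild type, a ratio of -0.93. CHLI2 (AT5G45930, chromosome 5, 18628007 to 18630706), the other copy, had 15.8 FPKM in phyA-1 and 27.6 FPKM in wild type, a ratio of -0.76. CHLD (AT1G08520, chromosome 1, 2696412 to 2700959), which encodes the D subunit that joins the I subunit in the motor of the enzyme, had 41.6 FPKM in phyA-1 and 63.2 FPKM in wild type, a ratio of -0.59. CHLI2 was the lowest of the 10 genes in both genotypes. The level of CHLI1 was 5.09 times that of CHLI2 in phyA-1 and 5.60 times in wild type, so both copies kept nearly the same proportion.

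Because FPKM is scaled by transcript length, levels of the subunits can be set against each other within a genotype. Relative to CHLD, the level of CHLH was 1.35 in phyA-1 against 4.78 in wild type. The level of GUN4 was 0.643 in phyA-1 against 2.50 in wild type. The corresponding level of CHLI1 was 1.94 in phyA-1 and 2.44 in wild type. The proportion of CHLH to CHLD therefore differed 3.54-fold between the genotypes, that of GUN4 to CHLD 3.88-fold and that of CHLI1 to CHLD 1.26-fold. In wild type CHLH was the most abundant chelatase transcript, with 1.96 times the level of CHLI1, while in phyA-1 it had 0.698 times that level. These proportions do not depend on how libraries were scaled, but no test of a difference between genes could be made from pooled values.

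**Figure D2:**
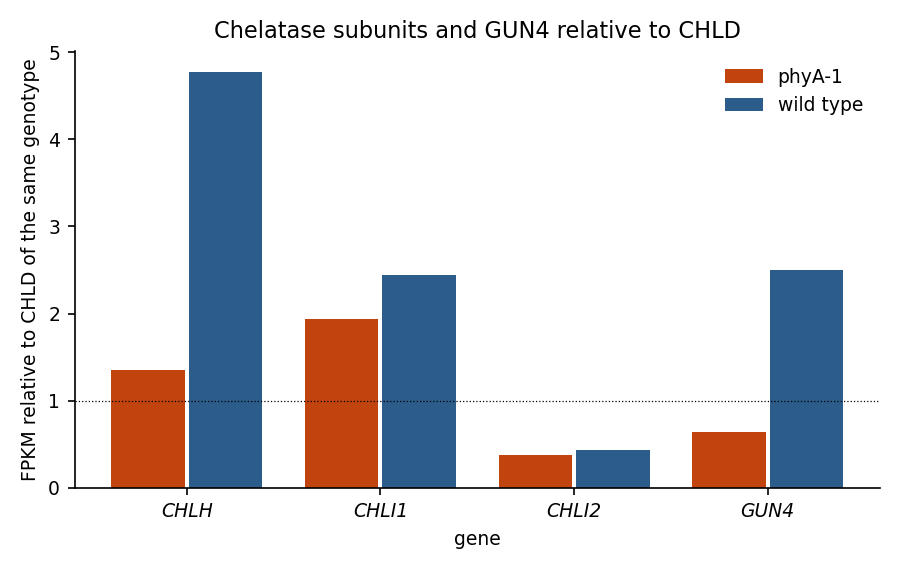
FPKM of CHLH, CHLI1, CHLI2 and GUN4 divided by the FPKM of CHLD in the same genotype (vertical axis, from 0; the dotted line marks a proportion of 1), phyA-1 left and wild type right. The bars of CHLH (1.35 in phyA-1, 4.78 in wild type) and GUN4 (0.643 and 2.50 in the same order) differ most, and those of CHLI2 (0.380 in phyA-1, 0.436 in wild type) least.

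CHLI1 and CHLI2 are similar enough in sequence to ask whether reads could have been exchanged between them. Their coding sequences, of 1275 and 1257 bases in RefSeq's annotation of TAIR10.1, were identical at 81.8% of 1257 aligned bases. The longest identical stretch, of 44 bases, lies in the last of 3 exons of each gene. It is printed below in capitals with 15 bases on either side, to show where the copies match exactly. CHLI1 is from chr4:10202471-10202544 (minus strand) and CHLI2 from chr5:18628918-18628991 (plus strand).
CHLI1: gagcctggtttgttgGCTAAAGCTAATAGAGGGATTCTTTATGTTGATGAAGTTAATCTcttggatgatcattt
CHLI2: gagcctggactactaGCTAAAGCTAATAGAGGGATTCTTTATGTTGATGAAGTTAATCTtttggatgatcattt
Of all 31-base windows in the exons, 99.1% for CHLI1 and 99.0% for CHLI2 occurred once in the genome, and 14 windows were shared by both. For CHLD the share was 99.9%, and for the other 7 members it was 100%. The windows count exact matches only, so reads aligned with mismatches are not covered. Whether such reads passed between CHLI1 and CHLI2 was not tested. The sources used here do not say how the authors treated reads that match several places.

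After the chelatase, CHLM (AT4G25080, chromosome 4, 12876846 to 12878651) encodes the methyltransferase that acts on magnesium protoporphyrin IX. It had 74.2 FPKM in phyA-1 and 150 FPKM in wild type, a ratio of -1.01. CRD1 (AT3G56940, also CHL27, chromosome 3, 21076505 to 21079856) encodes the membrane-bound subunit of the cyclase that forms the fifth ring of the chlorophyll macrocycle. It was the most abundant transcript of the branch in both genotypes, at 153 FPKM in phyA-1 and 505 FPKM in wild type, a ratio of -1.72. DVR (AT5G18660, chromosome 5, 6220781 to 6222228), the divinyl reductase, had 23.3 FPKM in phyA-1 and 44.3 FPKM in wild type, a ratio of -0.90. The steps between the chelatase and protochlorophyllide therefore differed among themselves too: the level of CRD1 was 2.06 times that of CHLM in phyA-1 and 3.37 times in wild type.

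The last pair of genes acts after protochlorophyllide reduction. CAO (AT1G44446, chromosome 1, 16848359 to 16851224) encodes the oxygenase that makes chlorophyll b from the a form. It had 19.1 FPKM in phyA-1 and 61.0 FPKM in wild type, a ratio of -1.62. CHLG (AT3G51820, chromosome 3, 19216003 to 19219057), chlorophyll synthase, attaches the phytol tail and had 44.8 FPKM in phyA-1 and 66.4 FPKM in wild type, the smallest fall of the branch at -0.56. CAO and CHLG thus stood close together in wild type, where CAO had 0.919 times the level of CHLG, and apart in phyA-1, where it had 0.427 times that level.

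Of the 10 members, 8 had a p-value of 5e-05 in the authors' deposited table, the smallest that table holds and one shared by 1668 genes, so these 8 cannot be ranked by it. CHLG (p = 0.0002, q = 0.0016) and CHLI2 (p = 0.00035, q = 0.0026) had the largest p-values of the branch in the authors' deposited table. The deposited test score, left undefined in the sources used here, ranged in size from 2.54 for CHLD to 11.7 for GUN4, with CHLH at 7.45, CAO at 6.26 and CRD1 at 5.97. The ratio tended to be lower in genes with more RNA in wild type (Spearman's rho = -0.66 and Pearson's r = -0.62 between log2 wild-type level and log2 ratio over the 10 genes, a description of genes that share the same libraries and whose ratio contains the wild-type level). CHLI1 and CHLM, with 154 and 150 FPKM in wild type, stood beside GUN4 with 158 FPKM, yet their ratios were -0.93 and -1.01 against -2.52.

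The order of levels differed between the genotypes. In phyA-1 it ran CRD1, CHLI1, CHLM, CHLH, CHLG, CHLD, GUN4, DVR, CAO and CHLI2, from 153 to 15.8 FPKM, a 9.64-fold span. In wild type it ran CRD1, CHLH, GUN4, CHLI1, CHLM, CHLG, CHLD, CAO, DVR and CHLI2, from 505 to 27.6 FPKM, an 18.3-fold span. GUN4 stood in place 7 in phyA-1 and in place 3 in wild type, and CHLH in place 4 in phyA-1 and place 2 in wild type. CRD1 and CHLI2 held the first and last places in both. Against all tested genes, the level of CRD1 exceeded 95.6% of them in phyA-1 and 99.2% of them in wild type, while that of GUN4 exceeded 76.0% in phyA-1 and 95.9% in wild type.

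**Figure D3:**
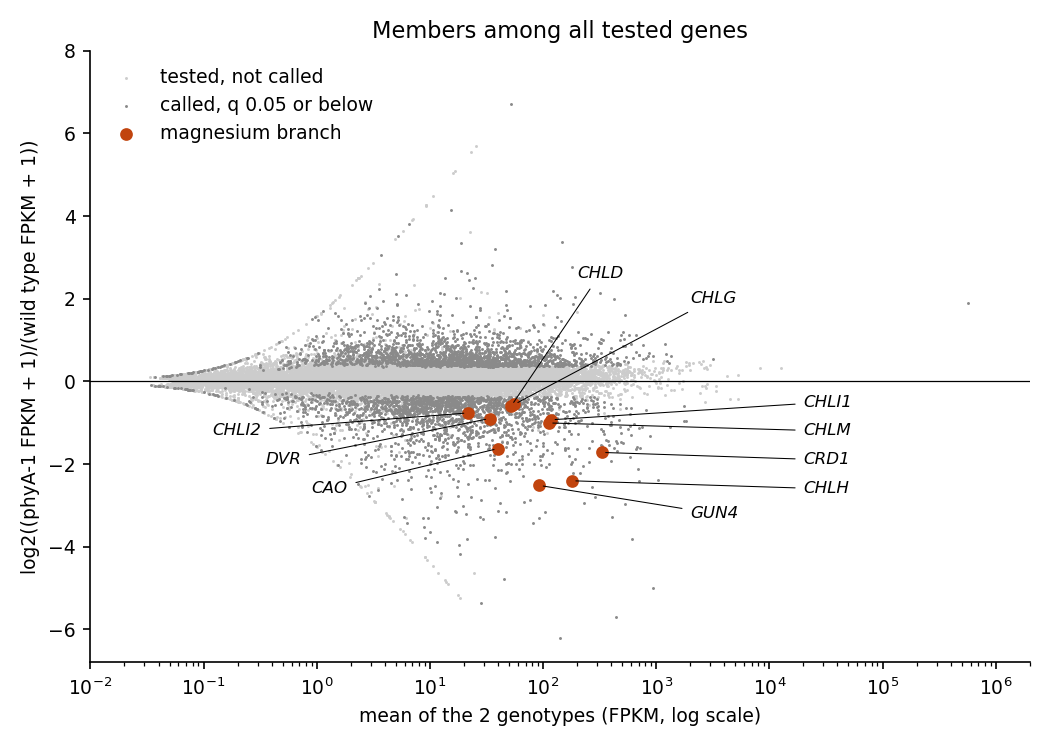
Ratio (log2) of phyA-1 over wild type (vertical axis) against the mean FPKM of both genotypes (horizontal axis, log scale) for all tested genes with a mean above 0. Light points are not called, dark points are called, and the 10 labelled points are the branch, all between -2.52 and -0.56; GUN4 and CHLH lie lowest and CHLG and CHLD nearest to 0.

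Overlaps with other genes bear on single members. In the deposited table CRD1 and CHLI2 each share a locus with a neighbour. The neighbour of CRD1, SIP2;1 (AT3G56950, an aquaporin family gene), had 63.7 FPKM in phyA-1 and 66.1 FPKM in wild type (q = 0.956 in the authors' deposited table). The neighbour of CHLI2, NUDT11 (AT5G45940), had 41.4 FPKM in phyA-1 and 36.9 FPKM in wild type (q = 0.649 in the authors' deposited table). Neither neighbour was called, and without the members on shared loci the median log2 ratio of the branch was -0.97 as before.

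In the TAIR10.1 annotation, which is later than the gene models of the table, 73.0% of the GUN4 exon lies under exons of GCN2 (AT3G59410) on the opposite strand. GCN2, a protein kinase of translation control, had 4.12 FPKM in phyA-1 and 4.47 FPKM in wild type, and the authors' deposited table gives it q = 0.659. For CHLI1, CHLI2, CHLD, CHLM, CRD1 and CAO, the part of the exons under exons of another protein-coding gene ran from 1.55% for CAO to 9.85% for CRD1, and none of those genes was called. CHLH, DVR and CHLG share no exon base with another annotated gene there. The sources used here do not say whether the libraries kept the strand, so reads from overlapping exons cannot be assigned with certainty.

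Lists of the neighbouring steps were read from the same comparison, and their counts stand beside the 8.54% of all tested genes called lower and the 8.61% called higher. In the early steps from glutamate to protoporphyrin IX, 8 of 15 genes fell, 1 rose and the other 6 did not pass the test, with a median log2 ratio of -0.37; at a q-value of 0.01 the lower calls numbered 4. HEMA1, the glutamyl-tRNA reductase gene at the entry of the pathway, had 19.3 FPKM in phyA-1 and 78.4 FPKM in wild type, a ratio of -1.97 that lies within the range of the magnesium branch. HEME1 and HEME2, uroporphyrinogen decarboxylase genes, fell by 1.16 and 0.87 on the log2 scale. HEMB2, annotated as an aminolevulinate dehydratase, was the one gene of the list that rose, at 5.47 FPKM in phyA-1 and 1.32 FPKM in wild type. Its paralog HEMB1 had 67.0 FPKM in phyA-1 and 81.0 FPKM in wild type and was not called. Summed over the list, the level in phyA-1 was 63.2% of that in wild type.

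The light-dependent step, which lies inside the branch but is not among the 10 listed genes, went the other way in part. PORA had 916 FPKM in phyA-1 against 418 FPKM in wild type, a ratio of 1.13. PORB had 669 FPKM in phyA-1 against 309 FPKM in wild type, a ratio of 1.11. With both genotypes rescaled to equal summed FPKM these ratios were 0.43 for PORA and 0.42 for PORB. With AT2G01021 left out of the sums they were 1.09 for PORA and 1.07 for PORB. PORC, the oxidoreductase gene associated with greened tissue, had 24.9 FPKM in phyA-1 and 55.7 FPKM in wild type, a ratio of -1.13. PORA and PORB are known to be abundant in dark-grown seedlings and PORA RNA to decline in light. The levels of the 3 reductase genes summed to 1609 FPKM in phyA-1 and 783 FPKM in wild type, while those of the 10 genes around them summed to 535 FPKM in phyA-1 and 1531 FPKM in wild type.

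On the heme side of the branch point, 4 of 7 genes fell, none rose and the other 3 did not pass the test, with a median log2 ratio of -0.29. At a q-value of 0.01 the lower calls numbered 3, without HO2. FC2, the ferrochelatase gene of green tissue, had 13.4 FPKM in phyA-1 and 32.9 FPKM in wild type (ratio -1.23), and FC1, its copy with wider expression, had 28.6 FPKM in phyA-1 and 43.8 FPKM in wild type (ratio -0.59). On the locus shared with FC1, AT5G26038 is listed at 0 in phyA-1 and at 19.0 FPKM in wild type and was not tested for lack of data, a gap wider than that of FC1 itself, and its part in the FC1 values was not tested. HO2, a heme oxygenase-like gene, fell by 0.45 on the log2 scale. HO4, also among the 4 called, is listed at 0 in phyA-1 and at 0.226 FPKM in wild type, without a test score. Its q-value in the authors' deposited table was 0.0087, so it stayed called at 0.01. Only 7.05% of all tested genes had a lower level in wild type. HO1, the main heme oxygenase on the way to the phytochrome chromophore, had 132 FPKM in phyA-1 and 105 FPKM in wild type and was not called (ratio 0.32, and -0.37 after rescaling to equal summed FPKM). With AT2G01021 left out of the sums the HO1 ratio was 0.29.

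Among partners of the branch and the phytol supply, 3 of 6 genes fell, 1 rose and the other 2 did not pass the test. LCAA, the partner protein of the CRD1 cyclase, had 129 FPKM in phyA-1 and 213 FPKM in wild type, a ratio of -0.71 beside -1.72 for CRD1. CHLP, the geranylgeranyl reductase that makes the phytol tail used by CHLG, had 249 FPKM in phyA-1 and 461 FPKM in wild type (ratio -0.89). GBP, which binds glutamyl-tRNA reductase, fell by 0.64 on the log2 scale (shared locus). LIL3.2, a light-harvesting-like protein gene, rose, at 393 FPKM in phyA-1 and 224 FPKM in wild type, a ratio of 0.81 that was 0.11 after rescaling to equal summed FPKM. With AT2G01021 left out of the sums the LIL3.2 ratio was 0.77. Counts and medians of these lists are descriptions, and no test of the magnesium branch against them was made, since all rest on the same pooled libraries.

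**Figure D4:**
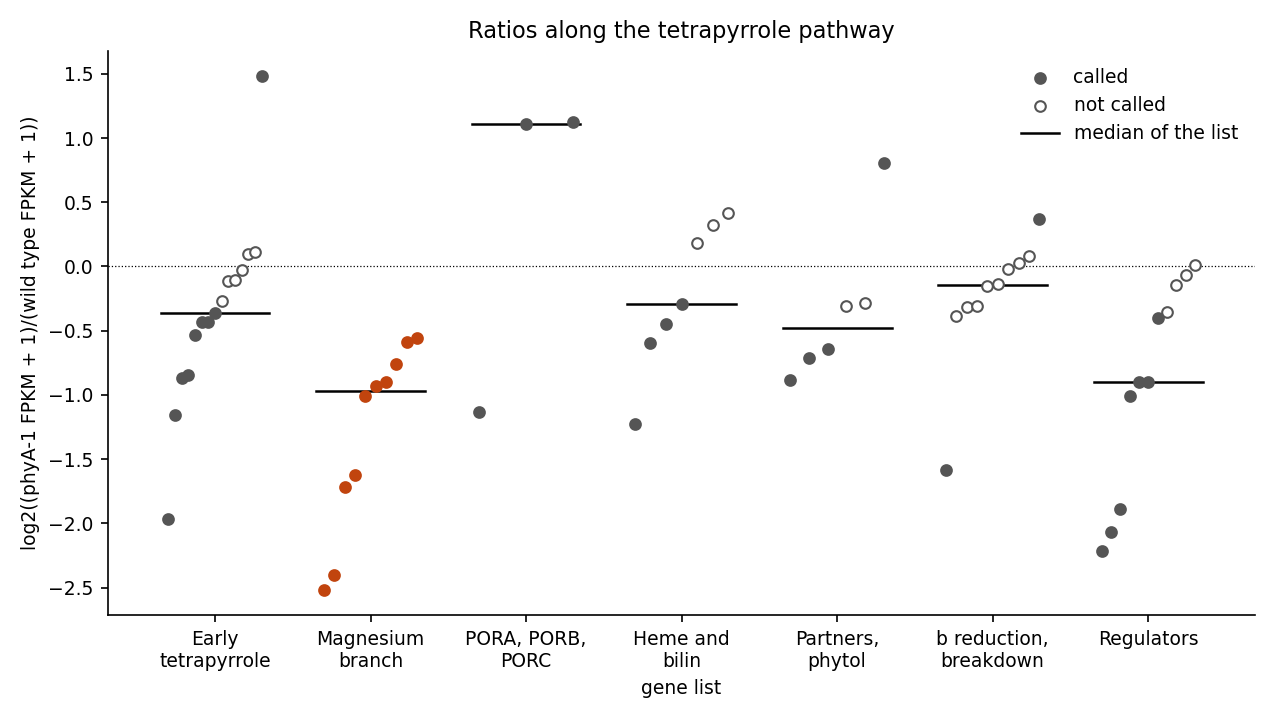
Log2 ratio of phyA-1 over wild type (vertical axis; the dotted line marks 0) for each gene of 7 lists, sorted within its list. Filled points are called, open points are not, and the bar is the list's median; the magnesium branch lies wholly between -2.52 and -0.56 with every point filled, and the other lists hold open points except that of the oxidoreductases, with 2 points above 0 and 1 below.

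Since the members moved together, the 250 bases before each annotated gene start (RefSeq, TAIR10.1) were searched on both strands for 5 motifs. The windows leave out the annotated span of the gene itself but not bases of other genes. Whether they run into a neighbour, such as GCN2 at GUN4, was not checked. The G-box CACGTG, bound by bZIP and bHLH factors of light signalling such as HY5 and the PIFs, was present in 2 of 10 members, CRD1 and CAO, against 6.49% of 27443 protein-coding genes. CCAATC, a motif linked to GLK factors, was present in GUN4 alone, against 10.2% of all. AATATCT, the core of the evening element bound by clock factors, was likewise present in GUN4 alone, against 2745 of the 27443 genes. CACGCGC, the site of FHY3 and FAR1 (1.06% of all), and GATAAG, the I-box linked to GATA factors (12.3% of all), were in none of the 10 windows. No motif was shared by the branch as a whole, and in this window CHLH, CHLI1, CHLI2, CHLD, CHLM, DVR and CHLG held none of the 5. The matches do not overlap each other.

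The windows of the 4 members with the lowest ratios are printed 5′ to 3′ on the strand of the gene, with matches in capitals, to show where the matches lie. CHLH has none in this window. GUN4 is from chr3:21949797-21950046 (minus strand), CHLH from chr5:4392430-4392679 (minus strand), CRD1 from chr3:21076255-21076504 (plus strand) and CAO from chr1:16851272-16851521 (minus strand).
GUN4: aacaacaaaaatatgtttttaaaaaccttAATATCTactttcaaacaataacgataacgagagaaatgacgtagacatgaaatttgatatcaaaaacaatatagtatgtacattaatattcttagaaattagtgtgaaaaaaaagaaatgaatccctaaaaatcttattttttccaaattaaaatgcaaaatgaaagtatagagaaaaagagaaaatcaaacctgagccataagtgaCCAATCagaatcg
CHLH: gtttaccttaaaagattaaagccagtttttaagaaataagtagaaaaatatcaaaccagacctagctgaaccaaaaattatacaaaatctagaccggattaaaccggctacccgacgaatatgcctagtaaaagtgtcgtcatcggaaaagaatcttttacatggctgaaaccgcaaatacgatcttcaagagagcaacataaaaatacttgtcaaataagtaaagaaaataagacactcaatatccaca
CRD1: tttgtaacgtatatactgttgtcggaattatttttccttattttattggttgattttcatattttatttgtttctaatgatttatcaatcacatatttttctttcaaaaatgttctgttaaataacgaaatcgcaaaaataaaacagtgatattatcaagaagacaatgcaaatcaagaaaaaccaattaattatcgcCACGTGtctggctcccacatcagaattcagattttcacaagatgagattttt
CAO: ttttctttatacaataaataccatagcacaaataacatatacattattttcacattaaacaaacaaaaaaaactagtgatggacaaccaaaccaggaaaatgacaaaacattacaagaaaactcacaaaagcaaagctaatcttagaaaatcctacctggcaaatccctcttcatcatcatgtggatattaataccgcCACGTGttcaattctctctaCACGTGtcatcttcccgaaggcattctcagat
In CRD1 the G-box spans bases -52 to -47 before the gene start. In CAO one G-box lies at the same distance, -52 to -47, and another at -32 to -27. In GUN4 the evening element core lies at -221 to -215 and the GLK-linked motif at -13 to -8. These distances rest on the TAIR10.1 gene starts. CAO starts at 16851271 there but at 16851224 in the deposited comparison, and GUN4 at 21949796 and 21949710 in the same order. The start of CRD1, 21076505, is the same in both, so the equal distance in CRD1 and CAO depends on the annotation. Whether a motif bears on the ratio of its gene was not tested. Letters in a window are no evidence of binding, and which factors occupied these promoters was not measured here.

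**Figure D5:**
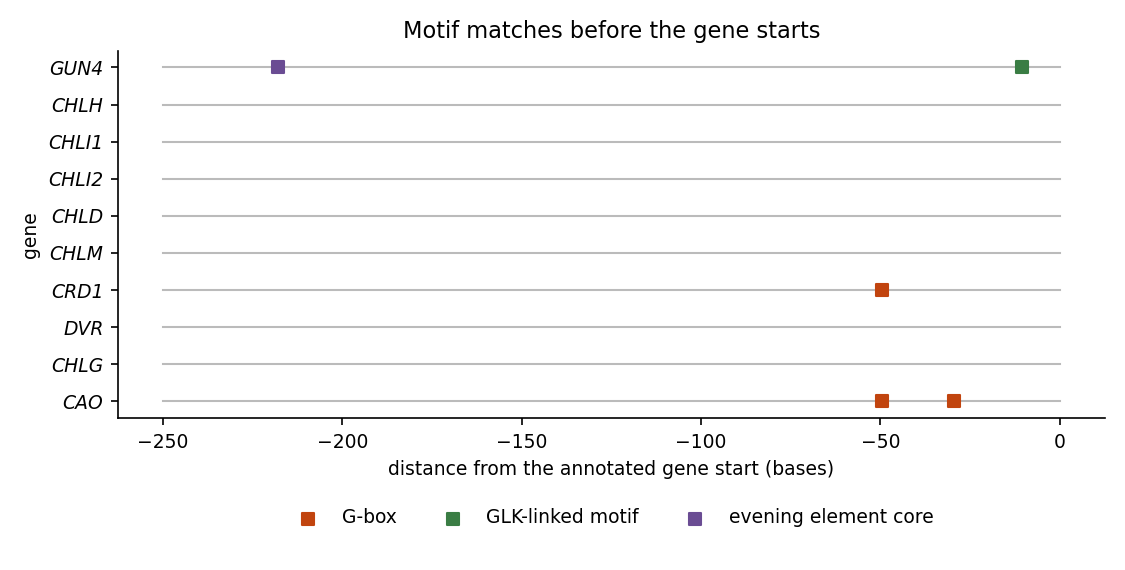
Position of motif matches (squares, coloured by motif) in the 250 bases before the annotated start of each of the 10 genes, with the distance from the start in bases on the horizontal axis and genes in pathway order from the top. Matches occur in GUN4, CRD1 and CAO, with 1 G-box in CRD1 and 2 in CAO.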

How the data were processed

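One deposited table without a header was used, the authors' comparison of phyA-1 with wild type, 1 line per gene. Its 14-column layout and values identify the columns; the submitters' processing notes name Bowtie and the build TAIR10, with no version. Other tools, the read depth and the treatment of strand are not stated in the sources used here. The authors deposited 1 FPKM value per gene and genotype, pooled over 3 libraries, so precision is known only through their test. Beside it they deposited a log2 fold with wild type on top, which matched the log2 quotient of both FPKM columns (tolerance 0.001) in 99.97% of genes. The deposited p-value, q-value and test score follow. Calls are theirs (q of 0.05 or below, across all 22892 tested genes); no test was run here. Ratios were recomputed as phyA-1 over wild type with a pseudocount of 1, which understates changes of low genes.

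Sequences and gene models come from RefSeq's TAIR10.1 (Python 3.11.15, Biopython 1.88). Of the 33557 table genes, 27973 were found there by identifier. The 23939 of these with an unshared locus all overlap the annotated gene, and 43.5% of them share its start or end. Table coordinates are written 1-based. The Benjamini-Hochberg and ratio steps were tested on simulated data. Alternatives were other thresholds, pseudocounts and scalings.

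Members, lists, motifs and the naming rule were chosen with earlier results of these data known. Named are all 10 members, PHYA, the PORs, and up to 4 called genes per list by size of ratio. HEMB1, HO1, FHY3, FAR1, GLK1, GNC, PIF1, PIF3, PIF5 and genes on overlapping or shared loci were added after their values were seen.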

Additional observations from a re-analysis of the deposited data

How the results depend on the processing

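All 10 members stayed called and lower with a q-value of 0.01 and with Benjamini-Hochberg adjustment of the deposited p-values over all tested genes (largest member value 0.0039), settings that called 11.5% and 15.5% of all tested genes in either direction. Asking also for a log2 ratio of -1 or less left 5 members and 2.49% of all tested genes. The members' median log2 ratio of -0.97 became -0.98 with a pseudocount of 0, -0.93 with 5, -1.04 when centred on the median of expressed genes, and -1.01 when both genotypes were rescaled to equal sums without AT2G01021, the gene with the highest FPKM. Rescaling with that gene gave -1.65; it shifted the median of expressed genes (5 FPKM or more in each genotype) by -0.65, and AT2G01021 alone holds 898139 FPKM in phyA-1 against 239694 FPKM in wild type. All 50 member ratios under these 5 alternatives stayed below 0. Of 104 such values for the 21 genes named from the other lists by rule, 1 reversed: HCAR, with a ratio of 0.37 as deposited, had -0.27 with AT2G01021 in the rescaling. That rescaling also took PORA to 0.43, PORB to 0.42 and LIL3.2 to 0.11, against 1.09, 1.07 and 0.77 without AT2G01021. The ratios of GLK1, GNC, PIF1, PIF3 and PIF5 were not put through these 5 alternatives. Of 40 values for 8 further named genes, all but PHYA chosen after seeing the data, 2 changed sign with AT2G01021 in the sums. These were HO1 (-0.37) and NUDT11 (-0.51), neither called. At a q-value of 0.01 the early steps had 4 lower calls in place of 8, the heme side 3 in place of 4 (HO2 lost) and the regulators 6 in place of 7 (GNC lost), and HCAR was not called. In windows of 500 bases, chosen after seeing the data, the G-box remained in CRD1 and CAO alone (9.35% of all promoters). In these windows the GLK-linked motif was in 3 members, GUN4, DVR and CAO (19.7%), and the I-box in 2, CHLH and DVR (22.5%). No paired analysis was possible because the table holds pooled values only; leaving out single replicates could not be run for the same reason. The unknown depth limits genes of low level, which the members are not.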

Other observations

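Of 10 genes of chlorophyll b reduction and breakdown, 1 fell, 1 rose and 8 were not called, with a median log2 ratio of -0.14. That is 2 of 10 called, near the 17.2% of all tested genes called in either direction. CLH1, a chlorophyllase gene known to respond to jasmonate, had 4.05 FPKM in phyA-1 and 14.2 FPKM in wild type (ratio -1.58). HCAR, which encodes a reductase on the way from chlorophyll b back to a, had 16.1 FPKM in phyA-1 and 12.2 FPKM in wild type (ratio 0.37, q = 0.0489 in the authors' deposited table, and lower in phyA-1 when FPKM is rescaled to equal sums over all genes). With AT2G01021 left out of the sums the HCAR ratio was 0.34.

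Of 11 known regulators of the pathway, 7 fell, none rose and 4 were not called, with a median log2 ratio of -0.90, where 8.54% of all tested genes were called lower; at a q-value of 0.01 the lower calls numbered 6. HY5, a bZIP activator of light-regulated genes, had 16.0 FPKM in phyA-1 and 77.9 FPKM in wild type. GLK2, a GARP factor that activates chlorophyll synthesis genes, had 25.8% of its wild-type level of 58.3 FPKM, a ratio of -1.89, and CGA1, a GATA factor of greening, had 0.435 FPKM in phyA-1 and 5.03 FPKM in wild type. PIF4, a bHLH factor that promotes growth of the hypocotyl, fell by 1.01 on the log2 scale. Of the other PIF genes in the list, PIF5 had a ratio of -0.90 and was called. PIF1 and PIF3 had ratios of -0.36 and 0.01 and were not called. FHY3 and FAR1, transposase-derived factors of phytochrome A signalling, had ratios of -0.14 and -0.07 and were not called. Whether any of these factors bears on the members' levels was not tested.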
